A study of Mus musculus with 2 samples.

Results

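A set of 10 genes that mark dendritic cells (DCs) or direct their development, Itgax, Flt3, Zbtb46, Dpp4, Kit, Zeb1, Id2, Tcf4, Spib and Runx2, was followed in splenic DCs cultured with or without interleukin-27 (IL-27). They were chosen by name, and each was read through the probe set that the platform annotation assigns to that gene alone. This gave values for 9 of the 10 genes, out of 19935 genes with such a probe set, and each of the 9 had 1 probe set. No probe set was assigned to Runx2 in the annotation used here, so it is not analysed here.

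The DCs were isolated by flow sorting of spleen cells from C57BL/6 mice that were wild type and 8 weeks of age. One group was cultured with vehicle (medium) and the other with IL-27, a cytokine of the IL-12 family, for a time that the labels give only as "ON". Total RNA of each group was hybridised to 1 Affymetrix array, so there are 2 arrays, no replicates, and no test, SD or p-value for any difference below. The labels give neither the sorting markers nor how many mice or cultures stand behind each array.

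DCs descend from bone marrow progenitors that carry the cytokine receptors Flt3 and Kit, and Flt3 signalling keeps supporting them in the spleen. Their branches are set by opposing transcription factors. The E protein Tcf4 (E2-2), with Spib and Runx2, directs and maintains plasmacytoid DCs, the specialised interferon producers. Id2 binds E proteins through its helix-loop-helix domain and keeps them off DNA, which favours conventional DCs, and Zbtb46 marks the conventional lineage. Tcf4 and Spib are also active in B cells, and Itgax is also carried by some macrophages.

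Values are intensities on a linear scale as deposited, and differences are log2 of the IL-27 value over the vehicle value, so a negative number means lower with IL-27. By the size rule used here, a gene was higher or lower if its difference reached 1 (2-fold) and its brighter value reached 96.2, the median intensity over all probe sets and both arrays (the level minimum). As a measure of signal from genes not expected in DCs, the 95th percentile of 1027 olfactory receptor genes was taken on each array, 77.3 with vehicle and 129 with IL-27, and is called the olfactory limit. All 9 genes lay above it on both arrays, at no less than 4.46 times the limit with vehicle and 1.74 times with IL-27.

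Of the 9 genes, 2 were lower by the size rule, the cytokine receptor gene Flt3 and the peptidase gene Dpp4, and none was higher. The same rule made 13.2% of the 11140 genes over the level minimum lower and 1.52% of them higher. A difference below 0 was seen for 8 of the 9 genes, against 70.9% of genes over the level minimum. The 9 differences ran from -1.09 (Dpp4) to 0.04 (Id2), with a median of -0.44, beside a median of -0.34 for all genes over the level minimum and 0.04 for all genes. The members' shift was therefore close to that of other bright genes. The plot of intensities shows a 2-fold gap for Dpp4 and Flt3, and a gap of nearly that size for Itgax and Tcf4. Gaps were smaller for Spib (1.36-fold), Zeb1 (1.32-fold) and Kit (1.28-fold), and the points of Zbtb46 and Id2 almost coincided.

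**Figure D1:**
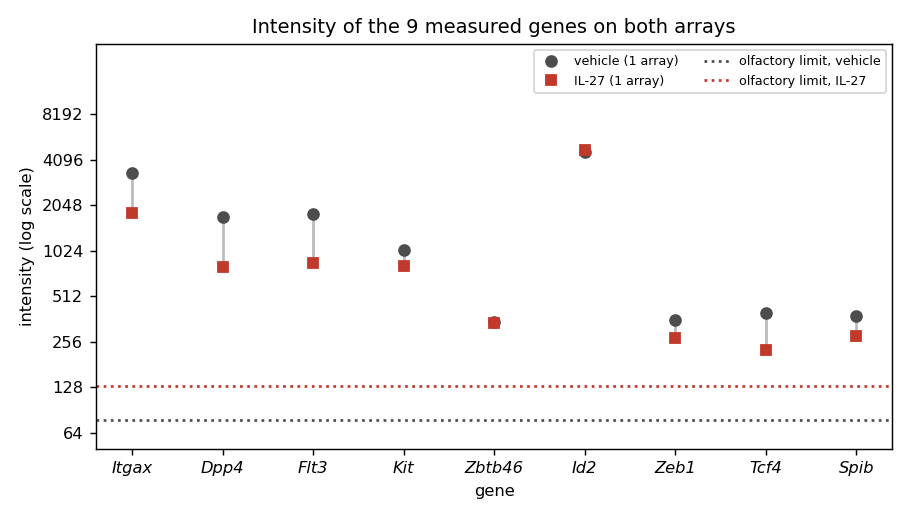
Intensity (log scale) of each of the 9 measured genes on the vehicle array (circles) and the IL-27 array (squares), 1 array each, with the olfactory limit of each array as a dotted line. Both points lie above their array's limit for every gene, and the gap is widest for Dpp4 (1718 and 804) and Flt3 (1796 and 851). Heights are not compared between genes, since probe sets differ in brightness.

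The share of genes past the size rule depended on how the 2 arrays were scaled. As deposited, 1468 genes were lower and 169 higher. The split was 907 lower and 235 higher after quantile normalization, 616 and 479 after centring each array on its 75th percentile, and 594 and 341 after removing the trend of the difference with level. Centring on the 75th percentile moved the median of all genes from 0.04 to 0.35. Neither Flt3 nor Dpp4 was past 2-fold under any of these 3 scalings.

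Among the surface molecules, Itgax and Dpp4 were both lower in intensity on the IL-27 array. Itgax, the integrin alpha chain CD11c by which DCs are usually recognised, read 3371 with vehicle against 1829 after IL-27. That is a difference of -0.88, or 1.84-fold, short of the size rule. Dpp4 (CD26), a surface peptidase that trims chemokines and that is carried by conventional DCs, had 1718 with vehicle and 804 with IL-27. Its difference of -1.09, 2.14-fold lower, was the lowest of the 9. Both genes kept a negative difference under every scaling tried, from -0.98 to -0.57 for Itgax and from -1.19 to -0.77 for Dpp4.

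The proteins that pair with these molecules did not all show the same values. Itgb2, the beta chain (CD18) with which CD11c forms its heterodimer, had 2293 and 1660, a difference of -0.47. The other alpha chains of that beta chain had more negative differences. Itgad was 3.13-fold lower (1939 and 619), and Itgam, CD11b, was at least 2.62-fold lower, since its IL-27 value of 122 lay under the olfactory limit. Itgal, the LFA-1 chain, had 804 and 422, a difference of -0.93 that did not pass the size rule. Ada, adenosine deaminase, which binds CD26 in humans, had 214 with vehicle and 106, under the limit, with IL-27, which is at least 1.66-fold. Of the relatives of Dpp4, Dpp8 was 2.07-fold lower (710 and 343), Dpp9 had 241 and 144, and the lysosomal peptidase gene Dpp7 had a positive difference, with 455 and 773.

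The cytokine receptors of the progenitor stage differed in size. Flt3, the receptor for Flt3 ligand, read 1796 on the vehicle array and 851 on the other, a difference of -1.08 or 2.11-fold lower. Kit, the receptor for stem cell factor, had 1039 and 809, a difference of -0.36. The gap between the differences of these receptors was 0.72 on the log2 scale as deposited and between 0.71 and 0.77 over 6 settings (as deposited, 4 other scalings and an offset of 16). Gene pairs given with such a gap were picked with their values in view.

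The ligand genes of both receptors were under the olfactory limit with IL-27. Flt3l read 179 with vehicle against 117 after IL-27, and Kitl had 123 and 83.3. The other myeloid growth factor receptors went in opposite directions. Csf1r, the receptor of macrophage colony-stimulating factor, was 2.36-fold lower (3287 and 1395). Csf2rb, the beta chain shared by receptors for GM-CSF, IL-3 and IL-5, was 2.50-fold higher (1657 and 4149), while the GM-CSF receptor alpha chain gene Csf2ra had 1975 and 1266. Csf2rb has a near-identical neighbour, Csf2rb2, and cross-hybridisation between them was not tested.

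Start-site sequences are shown for Flt3 and Dpp4, the genes past the size rule, for Itgax, the next lower surface marker, and for Id2, which barely differed between the arrays. They are RefSeq windows of assembly GRCm38.p6, 250 bases before to 50 after an annotated start, at chr5:147400440-147400739 (Flt3, minus strand), chr2:62412182-62412481 (Dpp4, minus strand), chr7:128129300-128129599 (Itgax, plus strand) and chr12:25096043-25096342 (Id2, minus strand). Sequences read 5′ to 3′ on the gene's strand, and capitals mark every match, on either strand, to one of the motifs described after them.
Flt3: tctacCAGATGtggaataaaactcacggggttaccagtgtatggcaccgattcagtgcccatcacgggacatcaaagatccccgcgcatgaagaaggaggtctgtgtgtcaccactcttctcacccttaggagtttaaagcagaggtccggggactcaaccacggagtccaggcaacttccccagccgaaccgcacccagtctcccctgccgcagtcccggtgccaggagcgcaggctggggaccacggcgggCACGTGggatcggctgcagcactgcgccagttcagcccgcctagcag
Dpp4: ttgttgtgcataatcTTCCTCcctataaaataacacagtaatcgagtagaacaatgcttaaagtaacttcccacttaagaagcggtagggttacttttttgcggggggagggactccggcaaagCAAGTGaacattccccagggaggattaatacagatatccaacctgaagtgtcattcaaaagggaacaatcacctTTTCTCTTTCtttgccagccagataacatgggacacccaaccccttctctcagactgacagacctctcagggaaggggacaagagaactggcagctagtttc
Itgax: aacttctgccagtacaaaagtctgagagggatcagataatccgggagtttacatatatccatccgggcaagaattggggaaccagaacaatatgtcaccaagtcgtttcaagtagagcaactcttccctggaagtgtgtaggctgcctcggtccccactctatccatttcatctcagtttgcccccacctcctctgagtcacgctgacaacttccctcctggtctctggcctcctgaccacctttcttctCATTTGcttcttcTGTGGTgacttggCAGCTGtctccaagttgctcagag
Id2: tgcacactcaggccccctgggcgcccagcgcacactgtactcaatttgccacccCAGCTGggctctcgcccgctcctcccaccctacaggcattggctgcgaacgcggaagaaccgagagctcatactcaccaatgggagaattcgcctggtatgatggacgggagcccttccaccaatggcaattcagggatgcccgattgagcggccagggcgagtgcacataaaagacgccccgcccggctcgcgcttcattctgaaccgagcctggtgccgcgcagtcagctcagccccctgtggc

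The motifs searched were the E box CANNTG bound by E proteins and Zeb factors, a PU box GAGGAA bound by Spib and its relative PU.1, the RUNX core TGTGGT, the STAT element TTCNNNGAA and the IRF element GAAANNGAAA. Of 32851 RefSeq windows of this length, 72.3% held an E box, 28.3% the PU box, 16.8% the RUNX core, 8.30% the STAT element and 3.44% the IRF element. Flt3 held 2 E boxes, Itgax 2 E boxes and 1 RUNX core, and Id2 1 E box. Dpp4 held 1 E box, 1 PU box and 1 IRF element that begins 52 bases before the start. The STAT element was not found in these 4 windows, and no matches overlapped in them. These matches describe the letters of the windows and were not tested for binding. Windows were used for 8 of the 10 genes, all but Tcf4 and Zeb1.

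Among the regulators of conventional DCs, Zbtb46 and Id2 had the smallest differences of the 9 genes as deposited. Zbtb46, a zinc finger repressor that marks conventional DCs and their committed progenitors, read 344 with vehicle against 340 after IL-27. Its difference of -0.02 turned to 0.32 with quantile normalization, 0.29 with centring on the 75th percentile and 0.51 with the level trend removed. Id2 had 4615 and 4739, a difference of 0.04 that turned to -0.06 with median centring. Zeb1, an E-box binding repressor, had 358 and 272, a difference of -0.40 that turned to 0.13 with the level trend removed. None of these 3 genes passed the size rule under any scaling.

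The differences of Zbtb46 and Flt3 lay 1.06 apart on the log2 scale, a 2.08-fold change of one relative to the other. Over the 6 settings this gap ran from 1.04 to 1.27. Zbtb46 and Dpp4 lay 1.08 apart, with a range of 1.06 to 1.28. These gaps do not depend on a constant scaling of either array, and with no replicates their error is unknown.

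Relatives of these regulators were read beside them. Zeb2, the paralog of Zeb1, which plasmacytoid DCs and type 2 conventional DCs require, had 648 and 360, a difference of -0.85. The Id2 relatives Id1 and Id3 were near or under the olfactory limit, Id1 at 86.8 and 118 and Id3 at 69.9 and 103. Id2 was thus the only gene of these 3 Id relatives above the limit on both arrays.

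The regulators of plasmacytoid DCs both had negative differences as deposited. Tcf4 read 400 with vehicle against 225 after IL-27, a difference of -0.83 or 1.77-fold, short of the size rule. Spib, an Ets factor that acts with Tcf4, had 378 and 278, a difference of -0.44 that turned to 0.08 with the level trend removed. The difference of Tcf4 was negative under every scaling, from -0.92 to -0.30.

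Other E proteins stood close to Tcf4. Tcf3 (E2A) had 464 and 243, a difference of -0.93, and Tcf12 (HEB) had 472 and 277, a difference of -0.77. With the level trend removed the differences were -0.41 for Tcf3, -0.25 for Tcf12 and -0.30 for Tcf4. The difference of Id2, their inhibitor, lay 0.86 above that of Tcf4 as deposited, and this gap ran from 0.42 to 0.86 over the 6 settings, lowest with the level trend removed. Spi1, which encodes PU.1, the closest relative of Spib, had 2152 and 2481, a difference of 0.21. Among partners of the RUNX family, Runx1 had 826 and 691, Runx3 had 974 and 1046, and Cbfb, the shared beta subunit, had 886 and 641.

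Each gene was also set beside the 1000 genes nearest to it in mean level, as a description of these arrays. All 9 genes lay within the 10th to 90th percentile of their neighbours' differences. Dpp4 and Flt3 were near the lower edge, with 10.7% of the neighbours of each as low or lower, against neighbour medians of -0.32 and -0.31. Itgax followed with 14.2%, and Tcf4 with 32.3%. Zbtb46 was near the upper edge, since 87.4% of its neighbours were as low or lower and their median was -0.54. Id2 had 74.6%, Zeb1 61.4%, Spib 58.8% and Kit 47.7%. In all, 5 genes lay below and 4 above the median of their neighbours.

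**Figure D2:**
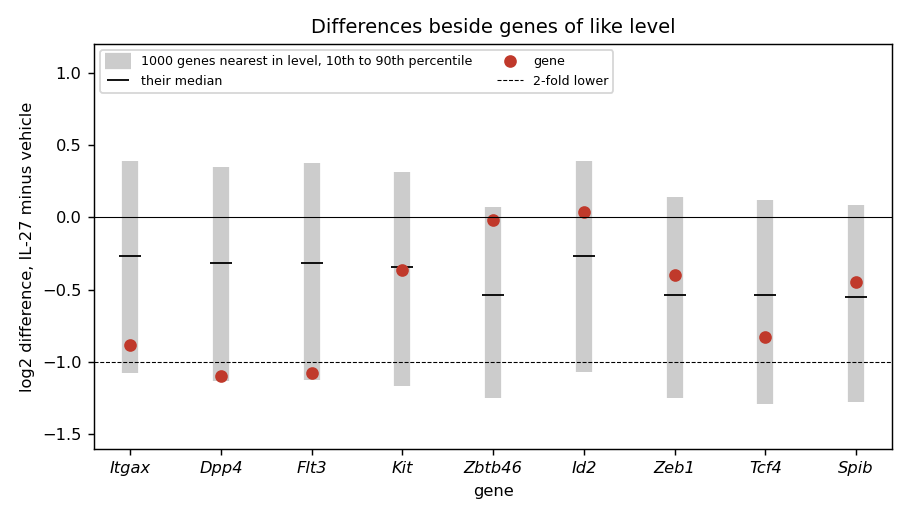
Log2 difference (IL-27 minus vehicle) of each gene (points) beside the 1000 genes nearest in mean level, shown as the 10th to 90th percentile (grey bars) and median (black ticks). Dpp4 and Flt3 lie just inside the lower end of their bars, Zbtb46 (-0.02) just inside the upper end of its bar (0.07).

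**Figure D3:**
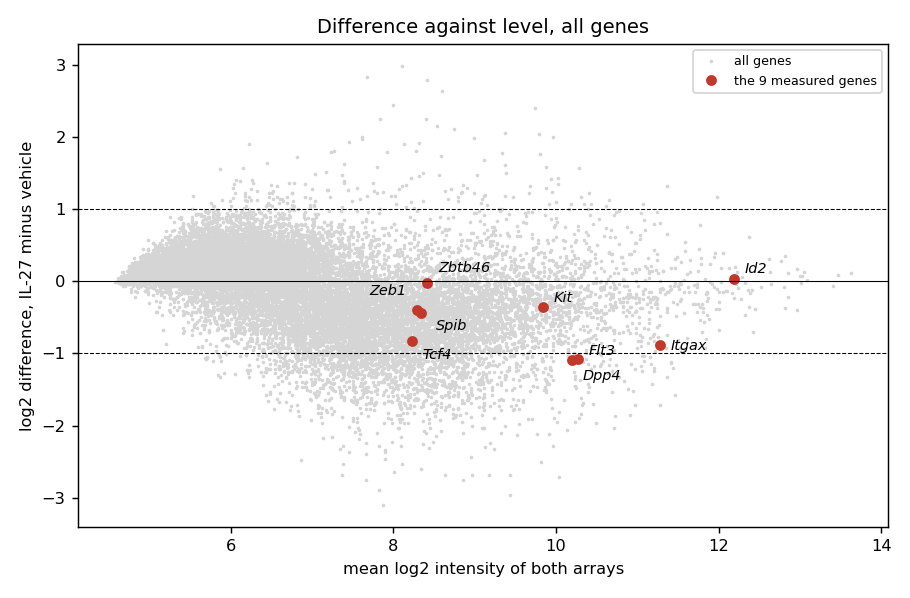
Log2 difference against mean log2 intensity for all 19935 genes (grey) and the 9 measured genes (red), with dashed lines at 2-fold. The grey cloud sinks below 0 at middle levels, where Tcf4, Spib, Zeb1 and Zbtb46 lie, and Dpp4 and Flt3 lie just past the lower dashed line.

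Among 25 other transcription factors of DC development, 4 were lower by the size rule, none was higher and 21 were neither, with a median difference of -0.44. Bcl11a, a zinc finger factor needed for plasmacytoid DCs and B cells, was 4.69-fold lower (777 and 166), the lowest of the list. Ikzf1 (Ikaros) was 2.27-fold lower, Mycl, which supports proliferation of type 1 conventional DCs, 2.21-fold, and Irf2 2.01-fold. Irf8, the factor of type 1 conventional DCs, had 2394 and 1502, and Cbfa2t3, a corepressor that represses Id2 in the plasmacytoid lineage, had 967 and 611.

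Among 22 partners and relatives of the genes above, 5 were lower (Itgad, Itgam, Csf1r, Dpp8 and Ada), Csf2rb was higher and 16 were neither, with a median of -0.63. Against the olfactory limit 4 of the 5 still differed 2-fold, all but Ada. Other genes enriched in DCs, of which 18 were over the level minimum, included 6 lower and none higher, with a median of -0.36 over 19 measured. Kmo, an enzyme of tryptophan breakdown, was 4.92-fold lower, the adhesion molecule gene Jaml at least 3.04-fold, the inhibitory receptor gene Btla 3.23-fold and Rab30 2.43-fold. All of these counts are read beside the background of 13.2% lower.

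Markers of plasmacytoid DCs were read beside Tcf4 and Spib. Siglech, the defining lectin of mouse plasmacytoid DCs, had 182 with vehicle and 113 with IL-27, the latter under the olfactory limit. Bst2 had 420 and 299. Of 19 plasmacytoid DC markers measured, 14 were over the level minimum, 3 of them lower and none higher. The share lower among all genes over the level minimum was 13.2%. The median difference was -0.53 for these 14 and -0.08 for all 19, beside -0.34 for all genes over the level minimum. Tlr7 was 4.31-fold and Irf7 2.67-fold lower, Pld4 2.15-fold, and Ccr9 had 349 and 189. Of the 19 markers, 11 had a negative difference and 8 a positive one. Cox6a2, among those with a positive difference, had 188 and 269 (0.52). Tlr7, Irf7 and Pld4 are also active in other myeloid cells, so Tcf4 and Spib are described here as genes and not as a measure of plasmacytoid DCs.

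Markers of other cell types and of conventional DCs were also read. Of 12 macrophage markers 10 were lower and none higher, with a median of -1.61. Their summed intensity was 31554.5 with vehicle and 12647.3 with IL-27, and Cd163, at 465 and 88.1, was under the olfactory limit with IL-27. Their part in the lower values of Itgax and Itgad was not tested, and Csf1r, also lower, is itself 1 of the 12 markers. Of 7 B cell markers measured, 6 were over the level minimum and 2 of these were lower, Ms4a1 by 2.15-fold and Cd22 by at least 3.05-fold. Cd79a had 185 and 180, and the summed intensity of the 7 was 1946 and 1187. Their part in the values of Tcf4 and Spib was not tested. In RNA of a whole sample, fewer cells of a type and less RNA per cell cannot be told apart. Markers of type 1 conventional DCs were lower for 4 of 8 genes, with a median of -1.03 and summed intensities of 10005.2 and 5065.6. Those of type 2 were lower for 4 of 6 over the level minimum, with a median of -1.45 for these 6. The 8 measured type 2 markers summed to 8062.94 with vehicle and 2950.7 with IL-27. All these marker counts are read beside the 13.2% of genes over the level minimum that were lower. Of T cell, NK cell and granulocyte markers, 2 of 6, 3 of 6 and 7 of 8 were at or below the olfactory limit on both arrays. Klrd1, among the NK cell markers, was 2.06-fold lower (555 and 269). Of these 6 markers, 4 had a positive difference and 2 a negative one, with a median of 0.15.

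**Figure D4:**
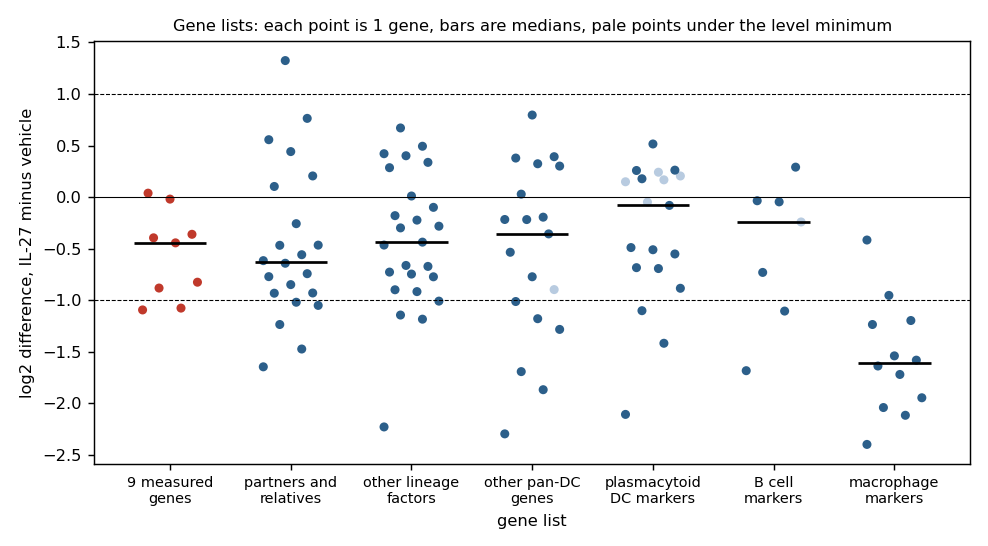
Log2 difference (IL-27 minus vehicle) of every measured gene in 7 lists, with list medians as bars, dashed lines at 2-fold and genes under the level minimum in pale points. The 9 measured genes have a median of -0.44, and the macrophage markers sit lowest of these 7 lists, at a median of -1.61. Markers of conventional DCs are not plotted.

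The sign of a difference depended on the scaling for 5 of the 9 genes. Dpp4, Flt3, Itgax and Tcf4 kept negative differences under every setting. Kit, Zeb1 and Spib were negative in all settings but the removal of the level trend, where they came to 0.0032, 0.13 and 0.08. Zbtb46 and Id2 lay within 0.12 of 0 as deposited and with median centring, and above 0 with quantile normalization, centring on the 75th percentile and the trend removed.

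**Figure D5:**
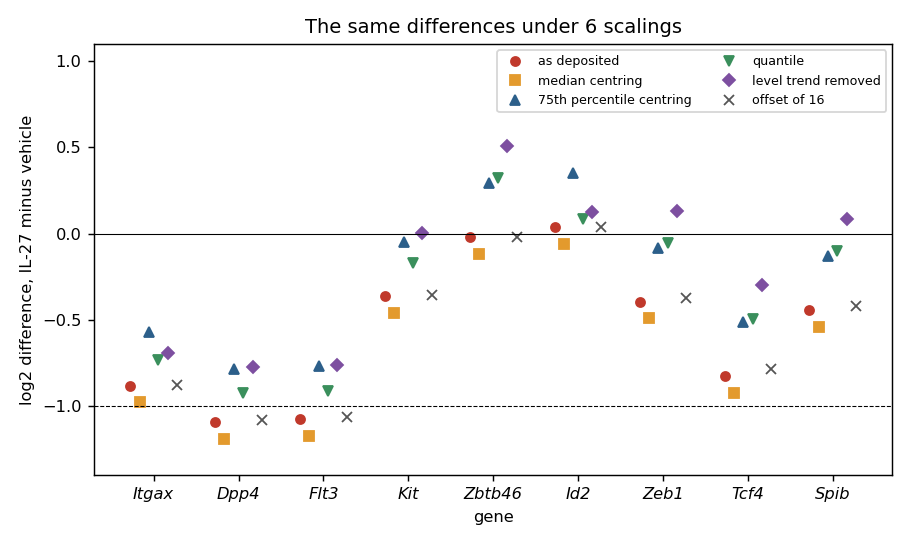
Log2 difference (IL-27 minus vehicle) of the 9 genes as deposited and under 5 other scalings, with a dashed line at 2-fold lower. Dpp4 and Flt3 lie past the dashed line as deposited, with median centring and with an offset of 16, and above it under the 3 other scalings.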

How the data were processed

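Total RNA from 2 samples was labelled with biotin and hybridised to 1 Affymetrix array each, per the labels' protocols. The deposited table holds 1 linear intensity per probe set for 28815 probe sets. How the scanner images were corrected, summarized and normalized is not given in the sources used here. The build was mm8 per the submitters' processing notes. The 2 columns differ in shape, with medians of 92.4 (vehicle) and 98.9 (IL-27) and 75th percentiles of 267 and 215. The number of arrays limits precision.

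GEO's platform annotation gave the gene names. Of the probe sets, 21780 had 1 gene, 1605 several and 5430 are unnamed here, and 21689 single-gene probe sets matched a RefSeq gene ID, which changed no symbol. The probe set with the highest mean log2 stood for a gene. Log2 was taken without a pseudocount (Python 3.11.15, pandas 2.3.3, statsmodels 0.14.6 for lowess, span 0.3). The size rule after removal of the level trend was tested on simulated differences with known shifts. These shifts were all larger than the rule, so calls near its limit were not tested. The counts as deposited were not tested in this way. The genes and lists were chosen with earlier results of these data known. Named genes were all members, their partners, 5 fixed genes and up to 4 per other list with the greatest absolute log2 difference among those over the level minimum.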

Additional observations from a re-analysis of the deposited data

How the results depend on the processing

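Each group has 1 array, so no replicate could be left out, and the alternatives show the effect of processing only. The count of lower genes among the 9, 2 as deposited, was 0 with quantile normalization, with centring on the 75th percentile and with the level trend removed, and 4 with a 1.5-fold rule (Itgax and Tcf4 added). It stayed at 2 with median centring, an offset of 16, the other 2 probe set choices and the other 2 level minimums, and the count of higher genes was 0 under all alternatives. The median difference of the 9 genes, -0.44, was -0.17 with quantile normalization, -0.13 with 75th percentile centring and 0.0032 with the trend removed. The 4 lists of other DC genes held 22, 25, 19 and 19 measured genes. Of these, 18 were lower and 1 higher as deposited. Quantile normalization gave 9 and 2, beside 907 and 235 over all genes. With 75th percentile centring there were 8 and 3, beside 616 and 479 over all genes. Removal of the trend gave 8 and 5, beside 594 and 341 over all genes. A 1.5-fold rule gave 36 and 4. The 1.5-fold counts, for the 9 genes and for the lists, are read beside a wider background. Out of 11140 genes that reached the level minimum, the 1.5-fold rule called 3753 lower and 653 higher. The 2-fold rule called 1468 and 169. The number of the 9 genes under the olfactory limit was 0 with its 90th, 95th or 99th percentile. No paired analysis was possible because each group has 1 sample and the labels carry no replicate numbers.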

Other observations

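The 4 lists held 22, 25, 19 and 19 measured genes. With the level trend removed, 5 of these genes were higher by the size rule, 4 of them not so as deposited. Over all genes, the same step took the count of higher genes from 169 to 341. Stat5a, a transcription factor downstream of GM-CSF, read 534 with vehicle against 851 after IL-27, a difference of 0.67 as deposited and 1.09 with the trend removed. Traf1, an adaptor of TNF receptors, had 1065 and 1849, a difference of 0.80 and 1.09. Cox6a2, a plasmacytoid DC marker, had 188 and 269, a difference of 0.52 and 1.003, and Dpp7 joined them with 0.76 as deposited. The fifth, Csf2rb, was higher both ways. Stat5a, Traf1 and Cox6a2 were named after their values were seen, and none of these differences has a replicate.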
